A study of Mus musculus with 6 samples.

Results

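The 10 CC chemokine ligands followed here were Ccl2, Ccl3, Ccl4, Ccl5, Ccl6, Ccl7, Ccl8, Ccl9, Ccl12 and Ccl22. They were found by symbol among the 32285 gene rows of both pools, and all 10 were present. The cells came from subcutaneous tumours of the mouse melanoma line YUMM1.7 in female C57BL/6 mice and had been sorted for CD45, the common leukocyte antigen. The 4 conditions were LysM-Cre mice given anti-PD-1, floxed mice given anti-PD-1, LysM-Cre mice given isotype control antibody, and floxed mice given isotype control antibody, with 4 mice in each. All mice carried the floxed Nr3c1 gene (GRf/f), which encodes the glucocorticoid receptor, and LysM-Cre mice (GRf/f-LysMCre) also carried Cre recombinase under the Lyz2 promoter, which is active in myeloid cells. Mice were 8 weeks old, antibodies were given at 12.5 mg/kg 2 times per week for 3 weeks from about day 7 after injection, and tumours were taken at day 28. Each mouse was marked with a hashtag antibody, and 8 mice, 2 of each condition, were mixed into each of 2 pools (E5 and E6).

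Chemokines are small secreted proteins that bind G protein-coupled receptors and guide leukocytes along their gradients. CC chemokine ligands share receptors: CCR2 draws monocytes out of the blood, CCR1 is carried by myeloid cells, and CCR4 and CCR8 are found on regulatory T cells. In tumours these ligands are known as signals that recruit monocytes, macrophages and T cells, and several of them are made by the recruited cells themselves.

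Of the 10 genes, 9 lie on mouse chromosome 11 (GRCm38.p6, RefSeq), in 2 clusters. Ccl2 (82035577 to 82037452), Ccl7 (82045712 to 82047525), Ccl12 (82101845 to 82103399) and Ccl8 (82115185 to 82116799) form the first. Ccl5 (83525778 to 83530518), Ccl9 (83572917 to 83578636), Ccl6 (83587886 to 83593087), Ccl3 (83647843 to 83649378) and Ccl4 (83648624 to 83664683) form the second. Ccl22 lies on chromosome 8 (94745684 to 94751388). The annotated spans of Ccl3 and Ccl4 overlap by 755 bases, and how shared reads were counted is not given in the sources used here, so the split between these neighbours is uncertain. Promoter sequence from RefSeq (GRCm38.p6) was at hand for 6 of the 10 genes. Shown are the 250 bases before the annotated start, 5′ to 3′ on the gene's strand, for 2 pairs of chromosomal neighbours whose levels are set side by side in the results: Ccl12 (chr11:82101595-82101844, + strand) with Ccl8 (chr11:82114935-82115184, + strand), and Ccl9 (chr11:83578637-83578886, - strand) with Ccl6 (chr11:83593088-83593337, - strand). Capitals mark matches to the searched motifs.
Ccl12: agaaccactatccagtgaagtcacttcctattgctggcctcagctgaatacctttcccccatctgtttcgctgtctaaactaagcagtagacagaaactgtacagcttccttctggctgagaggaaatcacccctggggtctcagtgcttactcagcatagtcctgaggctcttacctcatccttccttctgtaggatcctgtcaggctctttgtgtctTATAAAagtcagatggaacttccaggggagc
Ccl8: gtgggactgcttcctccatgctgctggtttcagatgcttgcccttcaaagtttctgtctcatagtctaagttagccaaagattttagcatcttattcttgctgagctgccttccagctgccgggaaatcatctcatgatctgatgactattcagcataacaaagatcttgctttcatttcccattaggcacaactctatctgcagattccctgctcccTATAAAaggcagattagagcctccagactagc
Ccl9: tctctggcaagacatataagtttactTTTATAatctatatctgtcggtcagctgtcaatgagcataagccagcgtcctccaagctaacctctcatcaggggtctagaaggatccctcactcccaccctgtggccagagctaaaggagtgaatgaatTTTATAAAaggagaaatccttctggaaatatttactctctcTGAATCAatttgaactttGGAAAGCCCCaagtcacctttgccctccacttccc
Ccl6: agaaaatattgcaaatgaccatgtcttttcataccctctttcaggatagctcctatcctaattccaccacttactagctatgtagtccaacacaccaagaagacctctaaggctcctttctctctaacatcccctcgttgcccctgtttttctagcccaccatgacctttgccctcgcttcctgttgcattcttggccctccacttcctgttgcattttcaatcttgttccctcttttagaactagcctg
Both strands were searched for a TATA box (TATAAA), an NF-kappaB motif (GGG and TTTCC separated by any 2 bases), an interferon-stimulated response core (GAAA and GAAA separated by any 2 bases), an AP-1 motif (TGANTCA) and a glucocorticoid response element (AGAACA and TGTTCT separated by any 3 bases). Ccl12 had a TATA box starting at -31 and Ccl8 one at -32, counted from the annotated start. Ccl9 had an AP-1 match at -53, an NF-kappaB match on the reverse strand at -35 and TATAAA matches at -224, -94 and -92, of which the last overlaps the one before it on the other strand. Ccl6, and likewise Ccl3 and Ccl22, whose windows are not printed, had no match. Among 32851 promoter windows of the same length, 12.4% held the TATA box, 1.41% the NF-kappaB motif, 2.98% the interferon-stimulated core, 6.75% the AP-1 motif and 0.00913% the glucocorticoid response element, which none of the 6 windows held. These matches describe letters in a window and were not tested against the levels.

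Of the barcodes, 17239 were assigned to 1 mouse, from 134 to 3098 cells and 1546045 to 29701640 gene UMIs (unique molecular identifiers) per mouse. Each anti-PD-1 mouse gave 460 to 883 cells in LysM-Cre and 134 to 846 in floxed mice, whereas isotype mice gave 650 to 2354 in LysM-Cre and 809 to 3098 in floxed mice. Clustering without any Ccl, Ccr, Ccrl or Ackr gene gave 29 clusters, of which 4 with 1218 cells stayed unnamed. The others were named in 15 classes from markers, so that each class is macrophage-like, monocyte-like and so on; the suffix is left out below. The 2 pools shared 805 barcode sequences, which label different cells. Fibroblast markers were found in 969 cells despite the CD45 sort, with 59.4 ± 44.7 CPM of Ptprc, the gene of CD45 (SD, n = 15 mice), against 516 ± 74.6 CPM in macrophages (n = 16). Nr3c1 in macrophages averaged 25.3 ± 3.43 CPM in LysM-Cre anti-PD-1 and 53.8 ± 2.01 CPM in floxed anti-PD-1 mice, and 42.3 ± 23.2 CPM in LysM-Cre isotype and 63.9 ± 14.8 CPM in floxed isotype mice (SD, n = 4 each). The tags come from 3′ ends and the labels do not name the deleted exons, so no deletion can be read from them.

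Levels below are in CPM, a gene's UMIs scaled to a common total of gene UMIs, over the cells of one class summed per mouse, given as mean ± SD over mice with at least 20 cells of that class. For classes seen in few mice the CPM over all cells is given instead, called pooled, with an exact Poisson interval that covers counting error only. By pooled level, Ccl2 and Ccl7 were highest in the mast or basophil class, Ccl8 and Ccl12 in macrophages, Ccl3, Ccl4 and Ccl6 in neutrophils, Ccl9 in monocytes, and Ccl5 and Ccl22 in mature dendritic cells.

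**Figure D1:**
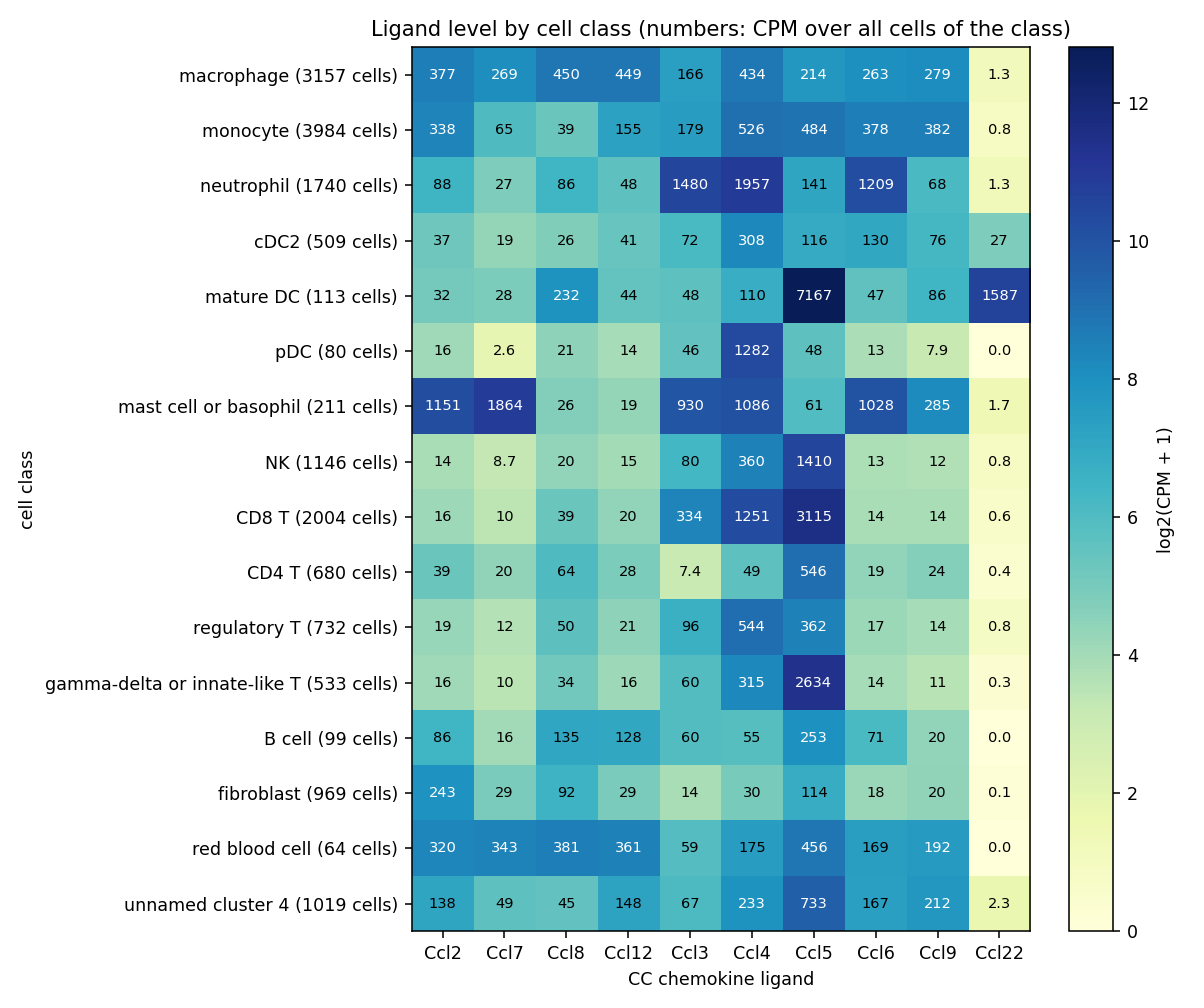
Level of each ligand (columns) in each cell class (rows, with its number of cells), coloured by log2(CPM + 1), with the CPM over all cells of the class printed in each field. Ccl22 reached 1587 CPM in mature dendritic cells, and Ccl5 reached 7167 CPM there.

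Ccl2, which attracts monocytes through CCR2, averaged 351 ± 145 CPM in macrophages (SD, n = 16 mice), 306 ± 181 CPM in monocytes (n = 16) and 249.2 ± 134 CPM in fibroblasts (n = 15). The order of these 3 classes lies within the spread over mice. The mast or basophil class stood above them at 1151 pooled CPM (95% interval 1090 to 1214, 211 cells). Ccl7, a further CCR2 ligand encoded beside Ccl2, averaged 245 ± 130 CPM in macrophages and 61.6 ± 53.0 CPM in monocytes (n = 16 each), against 1864 pooled CPM in the mast or basophil class (95% interval 1787 to 1944).

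The mast or basophil class held 2 clusters with opposite ligand profiles. Cluster 20 (178 cells) was led by the mast cell protease genes Mcpt2, Mcpt4 and Cma1, and held 1265 pooled CPM of Ccl2 and 2056 pooled CPM of Ccl7. A Ccl2 UMI was found in 86.5% of its cells and a Ccl7 UMI in 88.8%. Over the 9 mice with at least 10 such cells, Ccl2 averaged 1388 ± 409 CPM and Ccl7 2514 ± 1161 CPM (SD). The 4 LysM-Cre isotype mice had 5123, 2838, 2187 and 1319.6 CPM of Ccl7, the 4 floxed isotype mice 1472, 1969, 3349 and 2320.1 CPM, and floxed anti-PD-1 mouse 4 had 2046 CPM. The lowest of these 9 Ccl7 values was still several times the macrophage mean, and the isotype groups overlapped. Cluster 27 (33 cells) was led by Mcpt8, the protease of basophils, and held no Ccl7 UMI (exact 95% Poisson interval 0 to 34.1 CPM). Its 36.9 pooled CPM of Ccl2 rested on 4 UMIs. In place of these it held 9898 pooled CPM of Ccl3, 11246 pooled CPM of Ccl4, 10885.5 pooled CPM of Ccl6 and 2955 pooled CPM of Ccl9, each the highest of the 29 clusters. Scrublet marked 39.4% of its cells as doublets, against 4.72% of all cells. Cluster 20 held 8.54, 41.8, 14.2 and 10.4 pooled CPM of these 4 genes in the same order. Both profiles were seen in both pools: cluster 27 had 9112 CPM of Ccl3 in E5 and 10583.8 CPM in E6, and cluster 20 had 2289 CPM of Ccl7 in E5 and 1892 CPM in E6.

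Ccl12, a CCR2 ligand of mice, averaged 410.4 ± 213 CPM in macrophages and 132 ± 84.0 CPM in monocytes (SD, n = 16 each). Ccl8, which acts on CCR8 in mice, averaged 447 ± 313 CPM in macrophages and 40.3 ± 29.9 CPM in monocytes. Within macrophages the pooled level of both was highest in cluster 10, which was led by Folr2, Mrc1, Igf1 and Gas6, genes known from tissue-resident macrophages. That cluster held 1234 pooled CPM of Ccl8 and 799.6 pooled CPM of Ccl12, cluster 9 held 511 and 527, and cluster 5, led by Arg1 and Mmp12, held 61.1 and 177, and cluster 15 held 242 and 442. Over mice with at least 10 cells, Ccl12 averaged 691 ± 478 CPM in cluster 10 and 588 ± 435 CPM in cluster 9, and Ccl8 1807 ± 2031 CPM and 721 ± 702 CPM (SD, n = 15 each), so for both genes these clusters lay within the spread over mice. Ccl2 varied less among these clusters, with 516 pooled CPM in cluster 10, 289 in cluster 9 and 351 in cluster 5.

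The low values of these ligands in lymphocytes were read against free RNA, which enters droplets of cells that do not make it. NK cells held C1qa, a macrophage gene, at 2.17% of the macrophage level, CD8 T cells at 2.96% and gamma-delta or innate-like T cells at 2.75%, and Apoe at 2.99%, 4.11% and 3.85%. Ccl2, Ccl7 and Ccl12 stood at 3.23% to 4.48% of their macrophage level in the same 3 classes, near these background genes. Ccl8 was at 4.44% in NK cells, 7.52% in gamma-delta or innate-like T cells and 8.56% in CD8 T cells. CD4 T and regulatory T cells held Ccl8 at 14.3% and 11.2%, beside C1qa at 7.83% and 4.29% and Apoe at 9.56% and 5.32%. In B cells, which rested on 99 cells, C1qa stood at 19.2% and Apoe at 31.0%, so Ccl8 at 30.04% there cannot be told from free RNA. Shares of cells with a UMI at equal depth gave the same picture for Ccl12. With every cell thinned to 1000 UMIs, it was found in 20.5% of macrophages (unthinned 51.4%, median 12311 UMIs), 8.10% of monocytes (unthinned 30.2%, median 10568 UMIs) and 1.05% of NK cells (unthinned 10.3%, median 9846 UMIs). For Ccl8 the thinned share was 16.0% in macrophages but 3.22% in monocytes. That was below 7.68% in neutrophils, 5.99% in CD4 T, 5.03% in regulatory T and 4.11% in CD8 T cells. The part of free RNA in these Ccl8 shares was not tested.

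Ccl3 and Ccl4, chemoattractants of leukocytes encoded side by side, were highest in neutrophils among the classes measured in most mice. Ccl3 averaged 1307 ± 478 CPM in neutrophils (n = 14), 459.9 ± 448 CPM in CD8 T cells (n = 15), 171 ± 113 CPM in macrophages and 147 ± 88.6 CPM in monocytes (SD, n = 16 each). Ccl4 averaged 1739 ± 1476 CPM in neutrophils and 1648 ± 1136 CPM in CD8 T cells, an order that lies within the spread over mice. It had 491 ± 332 CPM in regulatory T cells (n = 9), 446 ± 261 CPM in NK cells (n = 14), 444 ± 288 CPM in macrophages and 437 ± 221 CPM in monocytes (n = 16 each), which do not differ beyond their spread. Plasmacytoid dendritic cells, few in number (80 cells), held 1282 pooled CPM of Ccl4 (95% interval 1203 to 1365) against 45.9 pooled CPM of Ccl3 (95% interval 32.0 to 63.8). Among CD8 T clusters, cluster 11, led by Pdcd1, Lag3 and Ifng, genes of activated and exhausted T cells, held 664 pooled CPM of Ccl3 and 2213 of Ccl4. Cluster 3, led by Gzmk and Cd8b1, held 82.6 pooled CPM of Ccl3 and 678 of Ccl4. Neutrophil cluster 7, led by Retnlg and Ly6g, held 1937 pooled CPM of Ccl3 and 2638 of Ccl4, and neutrophil cluster 8 held 873 and 1052.

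Ccl5, which draws T cells and NK cells and is kept as a ready transcript in memory and effector lymphocytes, averaged 3340.05 ± 854 CPM in CD8 T cells (n = 15), 2710.4 ± 663 CPM in gamma-delta or innate-like T cells (n = 9) and 1955 ± 1301 CPM in NK cells (SD, n = 14). Mature dendritic cells held more, 7167 pooled CPM (95% interval 7003 to 7333, 113 cells), with 7329.8 CPM in pool E5 and 6995 CPM in pool E6. The 4 mice with at least 10 such cells averaged 9199 ± 1483 CPM. With cells thinned to 1000 UMIs, Ccl5 was detected in 71.0% of mature dendritic cells, 69.0% of CD8 T cells and 69.6% of gamma-delta or innate-like T cells, against 32.8% of NK cells. The unthinned shares were 85.8%, 85.2%, 89.9% and 57.0% in the same order, at median depths of 8056, 5966.5, 6817 and 9846 UMIs. Among myeloid classes, Ccl5 averaged 541 ± 331 CPM in monocytes and 246 ± 211 CPM in macrophages (n = 16 each), and 711 ± 340 CPM in unnamed cluster 4 (n = 13), which was led by the antigen presentation genes H2-Ab1, Ciita and Cd74. The monocyte value came mainly from cluster 1, led by Saa3 and the interferon-induced Cxcl9, with 1101 pooled CPM, whereas cluster 13, led by Adgre4 and Ear2, held 41.4.

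Ccl6 and Ccl9, rodent ligands of CCR1, were both found in monocytes and macrophages and differed in neutrophils. Ccl6 averaged 1034 ± 313 CPM in neutrophils (n = 14), 419 ± 138 CPM in monocytes and 279.8 ± 147 CPM in macrophages (SD, n = 16 each). Ccl9 averaged 395 ± 116 CPM in monocytes, 290.2 ± 108 CPM in macrophages and 244.5 ± 125 CPM in cluster 4 (n = 13), but 47.5 ± 33.8 CPM in neutrophils. Unnamed cluster 25 (76 cells, median 646.5 UMIs), led by Alox15 and Cebpe, held 6239 pooled CPM of Ccl6 (95% interval 5654 to 6868) and 315 pooled CPM of Ccl9 (95% interval 195 to 481). Monocyte cluster 13 was the highest of the monocyte clusters for Ccl6, at 637 pooled CPM, and among them Ccl9 was highest in cluster 18, at 448.

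Ccl22, which attracts CCR4-bearing regulatory T cells, was found mostly in dendritic cells. Mature dendritic cells held 1587 pooled CPM (95% interval 1510.4 to 1666), with 1636 CPM in pool E5 and 1534 CPM in pool E6. cDC2 cells, a conventional dendritic cell class, averaged 28.1 ± 22.4 CPM (SD, n = 9), and the means of the other classes measured in at least 9 mice lay at or below 2.08 CPM. With cells thinned to 1000 UMIs, 49.5% of mature dendritic cells had a Ccl22 UMI (95% binomial interval 39.7% to 59.4%, Clopper-Pearson; unthinned 78.8%), against 2.16% of cDC2 cells (unthinned 9.63%, median 13870 UMIs) and 0.101% of monocytes.

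**Figure D2:**
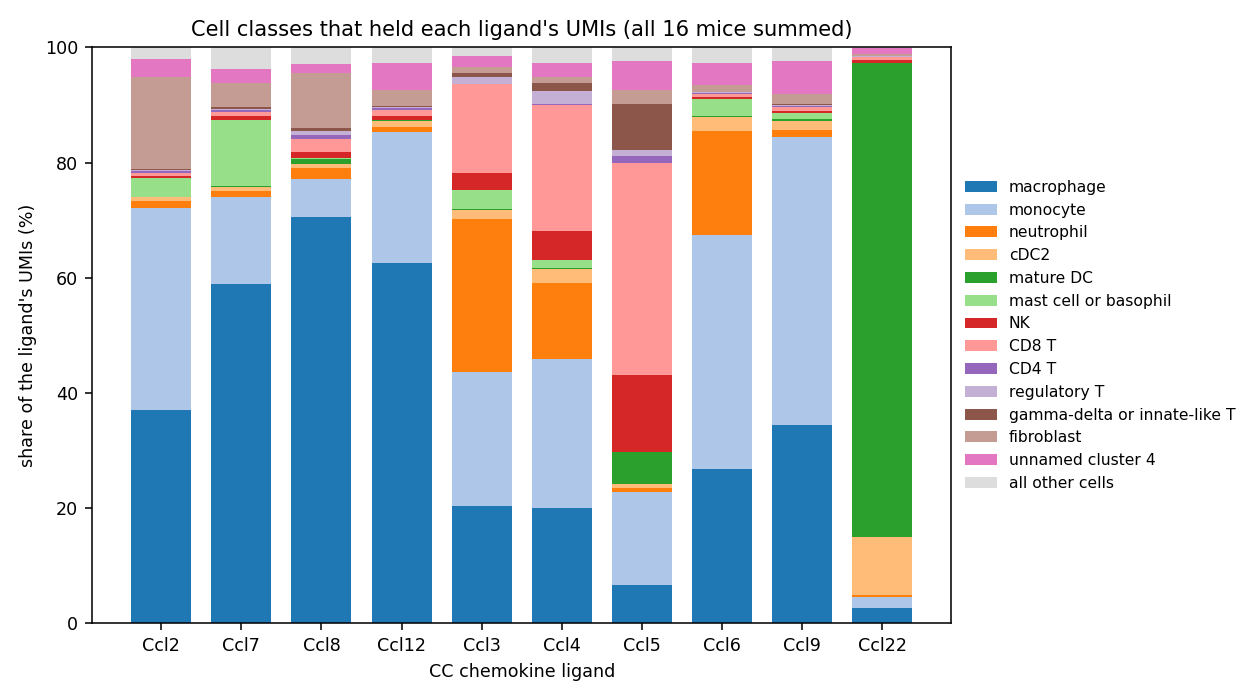
Share of each ligand's UMIs (vertical axis, %) that lay in each cell class (colours), summed over all 16 mice. Macrophages held 70.6% of Ccl8 and 62.5% of Ccl12, CD8 T cells 36.9% of Ccl5, and mature dendritic cells 82.3% of Ccl22.

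Summed over mice, the share of a ligand's UMIs in a class depends on the number and the RNA content of its cells as well as on its level. Macrophages held 70.6% of the Ccl8 UMIs, 62.5% of Ccl12, 59.0% of Ccl7 and 37.0% of Ccl2, while they gave 22.8% of all gene UMIs. Monocytes gave 24.1% of all gene UMIs and held 49.9% of Ccl9, 40.7% of Ccl6 and 35.0% of Ccl2. Neutrophils gave 3.34% of all gene UMIs and held 26.6% of Ccl3, 18.03% of Ccl6 and 13.2% of Ccl4. CD8 T cells gave 8.59% and held 36.9% of Ccl5 and 21.8% of Ccl4. The mast or basophil class gave 0.646% and held 11.6% of Ccl7, and mature dendritic cells gave 0.567% and held 82.3% of Ccl22. By mouse, the mature dendritic share of Ccl22 was 64.1 ± 34.5% (SD, n = 16), and the macrophage share of Ccl8 was 69.1 ± 12.5%. Each mouse had the same weight in these means, including mice with very few Ccl22 UMIs.

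In all, 3 pairs of related classes were compared within the same mice, with an exact two-sided sign-flip permutation test on the difference in log2(CPM + 1), adjusted by Benjamini-Hochberg over all genes that reached 10 CPM in either class. Ccl22 did not reach that level in any of the 3 pairs. Classes were clustered without the ligands, but related classes differ in many genes, so the share of all genes that passed is given beside each count. Between macrophages and monocytes (16 mice, smallest possible p 3.05e-05) 6 of 9 ligands passed, where 70.4% of 8069 genes passed. Ccl8 was higher in macrophages by 3.43 (SE 0.29), Ccl7 by 2.27 (SE 0.31) and Ccl12 by 1.71 (SE 0.24) on the log2 scale, each in 16 of 16 mice (adjusted p = 0.000114 in the exact test). Ccl8 averaged 40.3 CPM in monocytes, near the 37.8 CPM of CD8 T cells, and the part of free RNA in that value was not tested. Ccl5 (-1.04, SE 0.37), Ccl6 (-0.73, SE 0.19) and Ccl9 (-0.49, SE 0.14) were lower in macrophages, each in 13 of 16 mice, with adjusted p = 0.0177, 0.00292 and 0.00686 in the exact test. Ccl2 (0.31, SE 0.16), Ccl3 (0.16, SE 0.23) and Ccl4 (-0.09, SE 0.16) did not pass. Of the CCR2 ligands, Ccl7 and Ccl12 thus passed and Ccl2 did not. Ccl2 passed without LysM-Cre anti-PD-1 mouse 2 (0.37).

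Between neutrophils and monocytes (14 mice, smallest possible p 0.000122) 9 of 9 ligands passed, where 73.2% of 7627 genes passed. Ccl3 was higher in neutrophils by 3.25 (SE 0.16) and Ccl4 by 1.76 (SE 0.19) in 14 of 14 mice, Ccl6 by 1.32 (SE 0.19) in 13 of 14, and Ccl8 by 1.04 (SE 0.36) in 12 of 14. Ccl8 averaged 100.3 CPM in these neutrophils and 42.1 CPM in monocytes of the same mice. Neutrophils held 368 CPM of C1qa and 1833 CPM of Apoe beside it, at a median of 2899 UMIs per cell, and the part of free RNA in that value was not tested. Ccl9 was lower by 3.57 (SE 0.53) and Ccl2 by 2.02 (SE 0.23), each in 14 of 14 mice, and Ccl5 (-2.50), Ccl7 (-1.47) and Ccl12 (-1.37) were lower in 11 to 13 of 14. Adjusted p-values of the exact tests ran between 0.000385 and 0.0209.

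Between NK and CD8 T cells (14 mice) 4 of 9 ligands passed, where 37.9% of 8012 genes passed, and all 4 were lower in NK cells. Ccl3 averaged 104 CPM in NK cells and 453 CPM in CD8 T cells, a difference of -2.001 (SE 0.52). Ccl4 averaged 446 CPM in NK cells and 1571 CPM in CD8 T cells (-1.71, SE 0.33), and was lower in 13 of 14 mice. Ccl5 averaged 1955 CPM in NK cells and 3283 CPM in CD8 T cells (-1.01, SE 0.27). The adjusted p-values of the exact tests were 0.01, 0.00278 and 0.0115 for Ccl3, Ccl4 and Ccl5. Ccl8 averaged 20.8 CPM in NK cells and 39.4 CPM in CD8 T cells (-1.15, SE 0.39), beside 4.44% and 8.56% of its macrophage level, and the part of free RNA in these low values was not tested. Within 1 pool alone no ligand passed for this pair. With fewer mice the smallest possible p of the sign-flip test is higher, so this does not show that the differences were absent there.

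**Figure D3:**
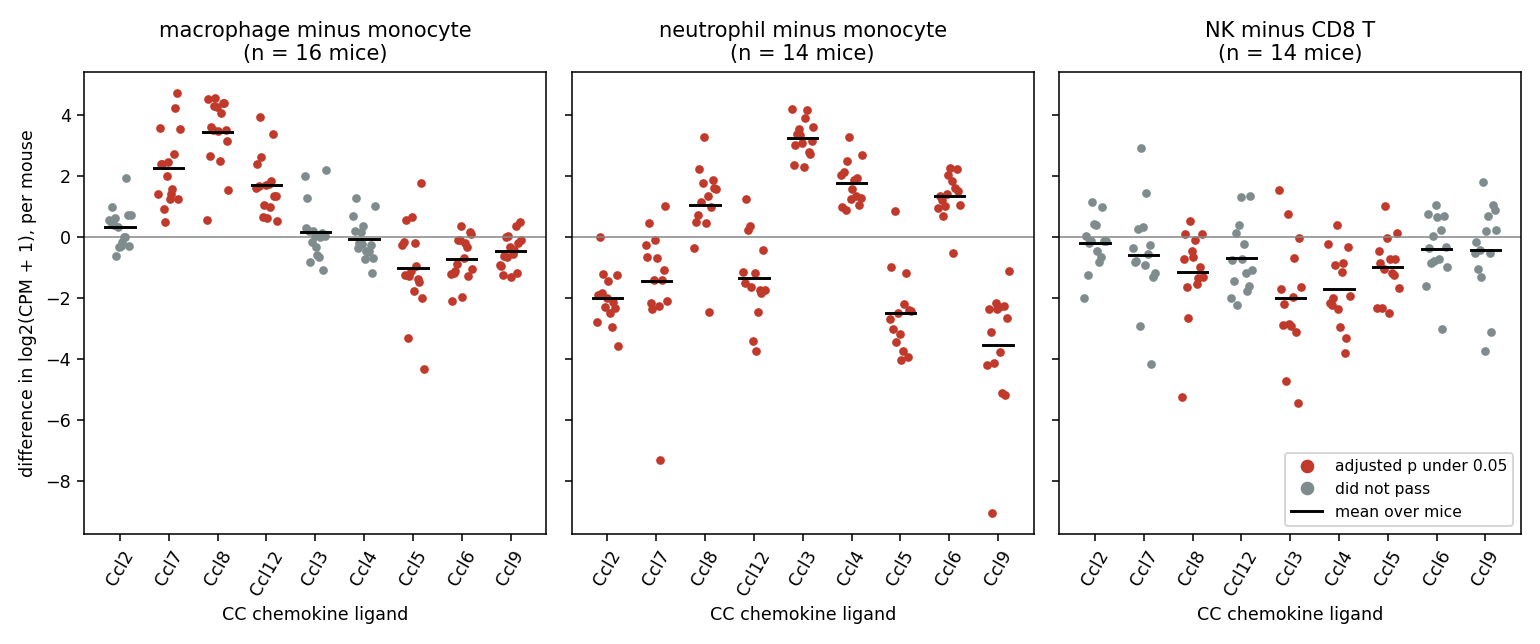
Difference in log2(CPM + 1) between 2 classes of the same mouse (points, 1 per mouse, red where the ligand passed and grey where not; bars, mean) for each ligand, in 3 class pairs. Ccl8 lay above 0 in all 16 mice for macrophage minus monocyte, and Ccl9 below 0 in all 14 mice for neutrophil minus monocyte.

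Genotype and antibody were then compared class by class with edgeR's quasi-likelihood test on counts summed per mouse, in 7 contrasts adjusted by Benjamini-Hochberg over all genes of a class. No ligand passed in any class or contrast: 0 of 410 tests had an adjusted p under 0.05, and DESeq2 gave 0 as well. At an unadjusted p under 0.05 there were 68 of 410 tests (16.6%), 29 higher and 39 lower. Over all genes, 0.0295% of 426484 tests passed and 6.52% reached the unadjusted threshold. The tests are not separate: the interaction and the averaged contrasts combine the others, and all cells together contain the classes. One difference can therefore be counted several times, and these shares are descriptions only. A ligand entered a test only where it passed a filter on low counts: all 10 did in all cells together and in cDC2 cells, 9 in macrophages, monocytes, fibroblasts and cluster 4 (all but Ccl22), 8 in CD8 T cells, 7 in neutrophils, gamma-delta or innate-like T and regulatory T cells, 5 in NK cells and 4 in CD4 T cells. The following values are therefore differences that did not pass, ordered by contrast, with the share of all genes beside each count. Where groups are said not to overlap, the share of all genes without overlap was not computed, so this only describes the values. In all contrasts fewer cells of a type and less RNA per cell cannot be told apart in values over all cells.

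LysM-Cre against floxed mice under anti-PD-1 gave 13 of 50 ligand tests at unadjusted p under 0.05 and 0 after adjustment, where 6.93% of all gene tests reached the unadjusted and 0.00183% the adjusted threshold. In macrophages 5 of 9 ligands were among them, where 12.3% of macrophage genes reached the unadjusted threshold. Ccl2 had 158, 115, 219 and 262 CPM in LysM-Cre mice, against 401, 295, 586 and 403 CPM in floxed mice, so that the groups did not overlap. The log2 change was -1.15 (SE 0.32, edgeR adjusted p = 0.283). Ccl7 had 93.6, 68.4, 94.996 and 242 CPM in LysM-Cre mice, against 158, 266, 441 and 199.9 CPM in floxed mice (-1.10, SE 0.46, edgeR adjusted p = 0.356), and LysM-Cre mouse 4 lay among the floxed mice. Ccl12 had 257, 180.3, 181 and 234 CPM in LysM-Cre mice, against 679.6, 255, 718 and 282 CPM in floxed mice (-1.17, SE 0.46, edgeR adjusted p = 0.327). Only LysM-Cre mouse 1 lay above the lowest floxed mouse.

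Ccl8, encoded next to Ccl12, had a difference of the opposite sign in the same macrophages. It had 364, 309, 1145 and 849 CPM in LysM-Cre mice, against 312, 112, 332 and 136 CPM in floxed mice (1.45, SE 0.48, edgeR adjusted p = 0.304), and the groups overlapped by LysM-Cre mouse 2. With another rule of assigning cells to hashtags, which asks for a top hashtag clearly above the next, the Ccl8 difference was 0.50, and it was 0.62 within pool E5 and 2.12 within pool E6. Ccl5 had 76.3, 249.8, 338 and 918 CPM in LysM-Cre mice, against 60.3, 48.6, 172 and 65.0 CPM in floxed mice (2.16, SE 0.62, edgeR adjusted p = 0.283). Summed T and NK marker genes, 12 in number and none at 0, were 14.5 CPM (10.8 to 18.3) in these LysM-Cre macrophages and 16.1 CPM (8.47 to 28.3) in the floxed ones. By cluster, Ccl2 averaged 125 ± 70.5 CPM in LysM-Cre and 363 ± 378 CPM in floxed mice in cluster 5 (n = 4 each), and 290.3 ± 141 CPM (n = 3) and 576 ± 111 CPM (n = 4) in cluster 10. Ccl8 averaged 2255 ± 1644 CPM (n = 3) in LysM-Cre and 1065 ± 1334 CPM (n = 4) in floxed mice in cluster 10, and 1071 ± 949 CPM (n = 4) and 449 ± 616 CPM (n = 3) in cluster 9 (SD over mice with at least 10 cells). Cluster 10 made up 15.8 ± 12.8% of macrophages in LysM-Cre and 23.5 ± 9.80% in floxed mice. Cluster 9 went the other way, with 30.7 ± 13.5% in LysM-Cre and 16.4 ± 7.34% in floxed mice. Cluster 5 made up 37.4 ± 9.87% and 36.4 ± 7.81%, and cluster 15 16.0 ± 6.62% and 23.8 ± 8.87%, LysM-Cre before floxed. The part of these shares in the ligand differences was not tested.

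Under isotype antibody none of these 5 ligands reached an unadjusted p under 0.05 between genotypes in macrophages. Ccl2 averaged 394 CPM in LysM-Cre and 402 CPM in floxed mice (0.01, SE 0.31), Ccl7 276 and 312 CPM (-0.13, SE 0.44), Ccl12 446 and 499 CPM (-0.14, SE 0.45), and Ccl8 309 and 588 CPM (-0.71, SE 0.47), LysM-Cre before floxed. Ccl5 averaged 266 CPM in LysM-Cre and 235 CPM in floxed mice (0.31, SE 0.59). The interaction, which tests whether the anti-PD-1 difference depends on genotype, had 6 of 50 ligand tests at unadjusted p under 0.05, where 3.98% of all gene tests did, and 0 after adjustment, where 0% did. It was 2.16 (SE 0.68) for Ccl8, -1.16 (SE 0.44) for Ccl2 and 1.85 (SE 0.85) for Ccl5 in macrophages, each with an edgeR adjusted p of 0.775. For Ccl8 it was 0.54 within pool E5, 3.71 within pool E6 and 1.41 with the other hashtag rule.

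**Figure D4:**
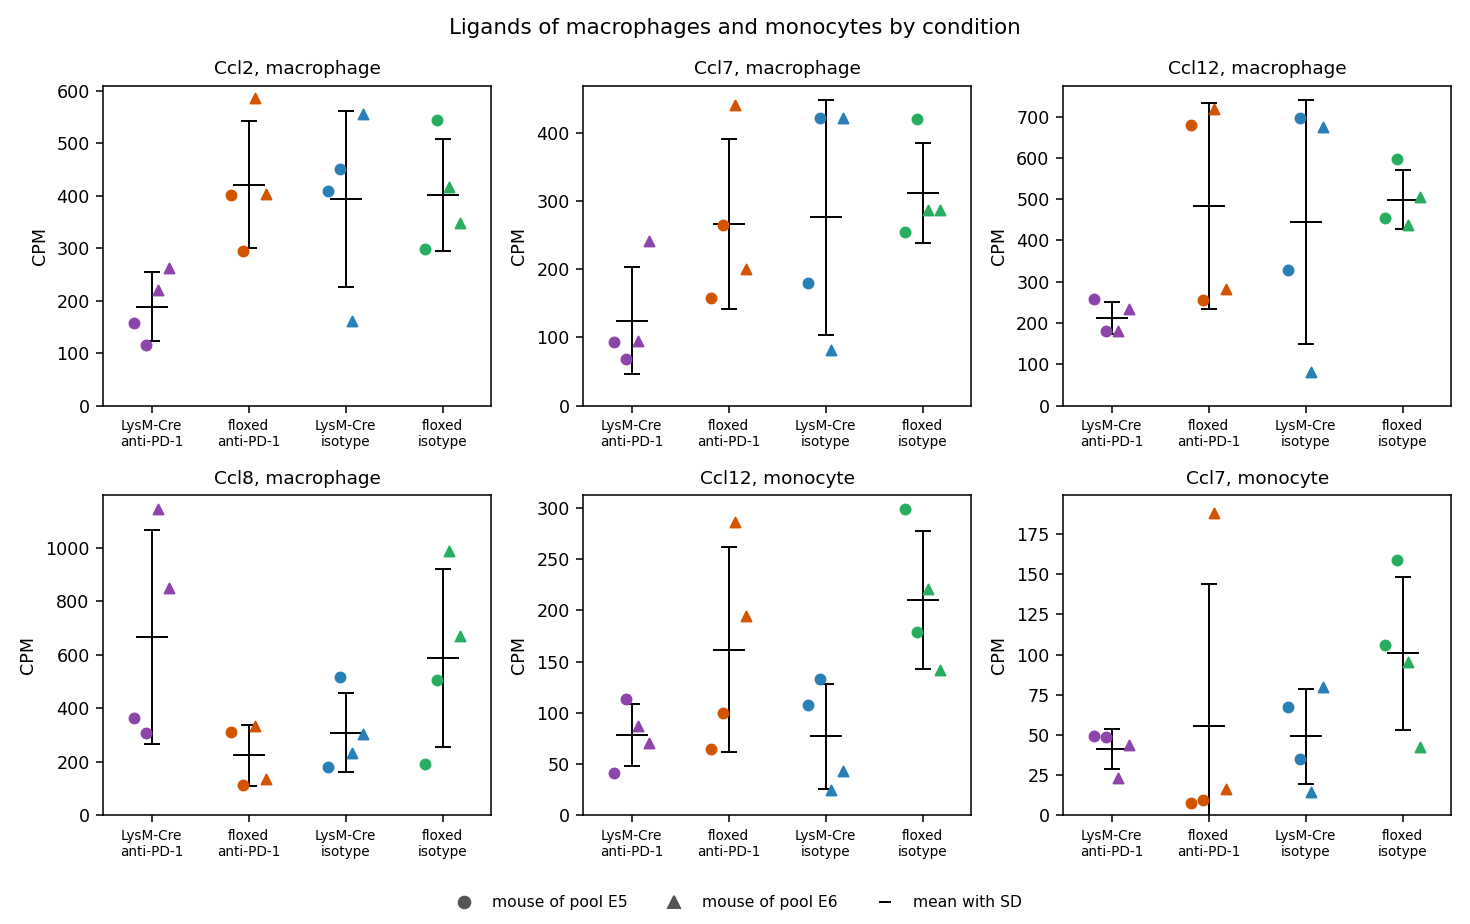
Level in CPM (vertical axes, starting at 0) of ligands of macrophages and monocytes in each mouse (circles, pool E5; triangles, pool E6), by condition (horizontal axis), with mean and SD (bars, cut at 0). Macrophage Ccl2 lay between 115 and 262 CPM in the anti-PD-1 mice with LysM-Cre and between 295 and 586 CPM in the floxed ones.

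Across all 16 mice, the macrophage levels of Ccl2, Ccl7 and Ccl12 varied together, while the pooled correlations with Ccl8 were near 0. On log2(CPM + 1), Ccl2 and Ccl7 had a Pearson r of 0.89 (Spearman rho 0.86), Ccl2 and Ccl12 of 0.82 (rho 0.84), and Ccl7 and Ccl12 of 0.80 (rho 0.78), with permutation p = 3e-05, 0.00013 and 0.00019 for r, and 3e-05, 0.0001 and 0.00067 for rho. Adjusted over the 6 relations computed, the p-values for r were 0.00018, 0.00038 and 0.00038, and those for rho were 0.00018, 0.0003 and 0.00134. Without the 2 mice farthest from the median of the first gene, r was 0.82, 0.89 and 0.71. Within pool E5 r was 0.87, 0.84 and 0.72, and within pool E6 0.92, 0.95 and 0.95. After subtraction of the condition means r was 0.84, 0.78 and 0.72. Ccl8 had an r of 0.01 with Ccl2 (rho 0.02, permutation p = 0.978 and 0.943), 0.06 with Ccl7 (rho 0.17, permutation p = 0.818 and 0.523) and 0.11 with Ccl12 (rho 0.10, permutation p = 0.695 and 0.716). After subtraction of the condition means these were 0.56, 0.40 and 0.39. The adjusted permutation p-values with Ccl8 were 0.978 for r and between 0.784 and 0.943 for rho. The 16 pairs of values share their libraries and their summed depth. Permutations ran over all mice regardless of condition and pool. Correlations of other macrophage gene pairs were not computed, so these are not shown to be particular to the ligands.

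In monocytes, Ccl12 was the only one of 9 ligands tested with an unadjusted p under 0.05 in a genotype contrast (within either antibody or averaged). LysM-Cre isotype mice had 107, 133, 24.9 and 43.1 CPM, against 299, 179, 221 and 141 CPM in floxed isotype mice, so that the groups did not overlap. The log2 change was -1.39 (SE 0.46, edgeR adjusted p = 0.99995). Under anti-PD-1, LysM-Cre mice had 41.3, 114, 86.6 and 70.7 CPM, against 64.5, 100.1, 287 and 195 CPM in floxed mice (-1.14, SE 0.48, edgeR adjusted p = 0.637). Averaged over antibodies the change was -1.26 (SE 0.34, edgeR adjusted p = 0.394), with -0.49 within pool E5 and -2.01 within pool E6, where it passed (adjusted p = 0.0126). Averaged over antibodies, 7 of 50 ligand tests reached unadjusted p under 0.05 and 0 passed, where 6.08% and 0.00731% of all gene tests did. In monocyte cluster 1, Ccl12 averaged 175 ± 39.1 CPM (n = 4) in LysM-Cre and 356 ± 156 CPM (n = 3) in floxed anti-PD-1 mice, and 224 ± 32.8 CPM (n = 3) in LysM-Cre and 395 ± 103 CPM (n = 4) in floxed isotype mice. Cluster 1 made up 28.3 ± 13.3% and 26.6 ± 23.0% of monocytes in the anti-PD-1 groups, and 22.4 ± 14.2% and 34.2 ± 6.17% in the isotype groups, LysM-Cre before floxed.

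LysM-Cre against floxed mice under isotype antibody gave 10 of 94 ligand tests at unadjusted p under 0.05 and 0 after adjustment, where 3.16% and 0.0125% of all gene tests did. The lowest p was that of Ccl4 in gamma-delta or innate-like T cells, with 70.7, 257, 233 and 154 CPM in LysM-Cre mice, against 267, 293, 398 and 589.7 CPM in floxed mice. The groups did not overlap, and the log2 change was -0.98 (SE 0.21, edgeR unadjusted p = 6.22e-05, adjusted p = 0.147). When LysM-Cre isotype mouse 2 was left out it passed (-1.49, edgeR adjusted p = 4.15e-05), as it did when floxed isotype mouse 3 was left out (-1.02, edgeR adjusted p = 0.0327). It was -0.64 with the other hashtag rule. At clustering resolution 0.5 it was -0.49 (edgeR adjusted p = 0.9998), but the class of that name then held other cells. There it had 1663 cells, whose leading genes included Cd8b1, Tcf7 and Lef1, against 533 cells led by Klra6 and Trdc at resolution 1. Without that LysM-Cre mouse, Ccl3 (-1.69) and Ccl4 (-1.45) in regulatory T cells also passed. So did Ccl4 in cDC2 cells (-2.94), but with 2 LysM-Cre isotype mice left, under the minimum of 3 used here, and with their spread taken from all groups. In regulatory T cells within pool E5, however, Ccl3 (1.47) and Ccl4 (1.25) passed with the opposite sign. That fit held 2 mice per group, under the same minimum, and rested on LysM-Cre isotype mouse 2. For mice 1 and 2, Ccl4 was 187 and 1009 CPM in LysM-Cre and 325 and 227 CPM in floxed mice. Ccl3 was 38.4 and 168 CPM in LysM-Cre and 56.3 and 36.7 CPM in floxed mice. Of 144 tests of dissociation stress genes in this contrast 3 passed, all lower in LysM-Cre mice. In gamma-delta or innate-like T cells the 12 stress genes, none at 0, summed to 2926 CPM (1655 to 4240.1) in LysM-Cre and 3978 CPM (2125 to 6046) in floxed isotype mice, and the 12 myeloid genes to 4765 CPM (4162 to 5522) and 5364 CPM (4670 to 6222). The part of either list in the Ccl4 difference was not tested. The myeloid list was C1qa, C1qb, C1qc, Apoe, Csf1r, Fcgr1, Ms4a7, Cd14, Plac8, Ly6c2, Tyrobp and Fcer1g. How much of its sum was the T cells' own RNA was not tested, so it does not measure free RNA alone.

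Anti-PD-1 against isotype in LysM-Cre mice gave 12 of 66 ligand tests at unadjusted p under 0.05 and 0 after adjustment, where 5.75% and 0.00155% of all gene tests did. In macrophages Ccl2 had the 4 anti-PD-1 values already given, against 408, 451, 160.3 and 556 CPM with isotype, a log2 change of -1.09 (SE 0.32, edgeR adjusted p = 0.760), with -1.67 within pool E5 and -0.53 within pool E6. Isotype mouse 3 lay among the anti-PD-1 mice. The T and NK markers of these macrophages summed to 14.5 CPM (10.8 to 18.3) with anti-PD-1 and 39.8 CPM (23.1 to 57.5) with isotype, and their part in these differences was not tested. Ccl7 (-1.22, SE 0.46) and Ccl12 (-1.04, SE 0.46) had the same sign, each with an edgeR adjusted p of 0.99993, and both contrasts that show these values share the LysM-Cre anti-PD-1 mice. In neutrophils Ccl4 had 882, 3539, 1420.2 and 2382 CPM with anti-PD-1, against 456, 958, 1740.03 and 592 CPM with isotype (1.23, SE 0.55, edgeR adjusted p = 0.998), and Ccl3 had 759.5, 1444, 1578 and 1999.7 CPM against 464, 794, 1310.1 and 1268 CPM (0.67, SE 0.30, edgeR adjusted p = 0.998). In cluster 4, Ccl5 averaged 1066.5 CPM with anti-PD-1 and 584 CPM with isotype (0.85, SE 0.25, edgeR adjusted p = 0.967). Ccl9 there averaged 186 CPM with anti-PD-1 and 358 CPM with isotype (-0.93, SE 0.30, edgeR adjusted p = 0.9999), with 0.05 within pool E5 and -2.21 within pool E6.

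Anti-PD-1 against isotype in floxed mice gave 9 of 50 ligand tests at unadjusted p under 0.05 and 0 after adjustment, where 10% and 0.00731% of all gene tests did. Macrophage Ccl5 had the 4 floxed anti-PD-1 values already given, against 200.001, 252, 256 and 233 CPM with isotype (-1.51, SE 0.62, edgeR adjusted p = 0.333), and the groups did not overlap. The summed T and NK markers of these macrophages were 16.1 CPM (8.47 to 28.3) with anti-PD-1 and 74.0 CPM (40.4 to 108) with isotype. In LysM-Cre macrophages they were 14.5 CPM (10.8 to 18.3) with anti-PD-1 and 39.8 CPM (23.1 to 57.5) with isotype. Ccl5 there had 76.3, 249.8, 338 and 918 CPM with anti-PD-1, against 297, 369, 346 and 53.5 CPM with isotype, and the groups overlapped. The part of the markers in the Ccl5 values was not tested. Macrophage Ccl8 had the 4 floxed anti-PD-1 values already given, against 190.2, 504, 988 and 669.6 CPM with isotype (-1.25, SE 0.47, edgeR adjusted p = 0.307). It was -0.22 with the other hashtag rule, -0.62 within pool E5 and -1.80 within pool E6. In monocytes, Ccl7 averaged 55.3 CPM with anti-PD-1 and 100.8 CPM with isotype (-0.68, SE 0.74, edgeR adjusted p = 0.784). Floxed anti-PD-1 mouse 3 had 188 CPM, while the other 3 mice of its group had 7.49, 9.10 and 16.4 CPM. Without that mouse the difference was -3.38 and passed (edgeR adjusted p = 0.0459), and within pool E5, which does not hold it, the difference was -3.94 and passed. Within pool E6 it was 0.66.

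Averaged over genotypes, anti-PD-1 against isotype gave 11 of 50 ligand tests at unadjusted p under 0.05 and 0 after adjustment, where 11.9% and 0.192% of all gene tests did. The lowest unadjusted p among them was that of Ccl4 in NK cells. In NK cells Ccl4 had 384, 739 and 624 CPM in LysM-Cre and 404, 1064 and 593 CPM in floxed anti-PD-1 mice, against 357, 224, 288.5 and 200.9 CPM in LysM-Cre and 139.6, 325, 684 and 217 CPM in floxed isotype mice. All anti-PD-1 values lay above all isotype values but that of floxed isotype mouse 3, and the log2 change was 0.86 (SE 0.26, edgeR adjusted p = 0.551). The difference in NK Ccl5 was 0.90 (SE 0.35, edgeR adjusted p = 0.572). For CD8 T cells this difference was 1.30 for Ccl3 (SE 0.42, edgeR adjusted p = 0.366) and 0.91 for Ccl4 (SE 0.36, edgeR adjusted p = 0.540). Within pool E6 it was 0.34 for Ccl3 and 0.27 for Ccl4, and pool E5 had too few mice for its own value. CD8 Ccl3 averaged 519 ± 319 CPM in LysM-Cre and 849.9 ± 879 CPM in floxed anti-PD-1 mice (n = 4 and 3), and 197 ± 137 CPM in LysM-Cre and 370.3 ± 199 CPM in floxed isotype mice (SD, n = 4 each). Floxed anti-PD-1 mouse 1 had 1860.0 CPM, the highest of the 15, and without this mouse the difference was 0.52.

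In CD8 cluster 11, the Pdcd1 and Lag3 cluster, Ccl3 averaged 974 ± 390.3 CPM (n = 4) in LysM-Cre and 1827 ± 2137 CPM (n = 3) in floxed anti-PD-1 mice, and 457 ± 199.7 CPM in LysM-Cre and 588 ± 162 CPM in floxed isotype mice (SD, n = 4 each). Cluster 11 made up 40.4 ± 10.6% and 43.4 ± 10.1% of CD8 T cells with anti-PD-1, and 29.5 ± 15.5% and 38.2 ± 2.70% with isotype, LysM-Cre before floxed. The stress genes of CD8 T cells summed to 1696 and 3292 CPM with anti-PD-1, and 2434 and 3051 CPM with isotype, in the same order. The myeloid genes of CD8 T cells summed to 2922 CPM (2759 to 3116) in LysM-Cre and 3034 CPM (2419 to 3489) in floxed anti-PD-1 mice, and 3844 CPM (3215 to 4210.3) in LysM-Cre and 3675 CPM (2832 to 4415) in floxed isotype mice. Of the myeloid list, C1qa averaged 151 CPM and Apoe 638 CPM in CD8 T cells over all conditions. How much of the other myeloid sums was the cells' own RNA was not tested. The part of either list in the Ccl3 and Ccl4 values was not tested.

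**Figure D5:**
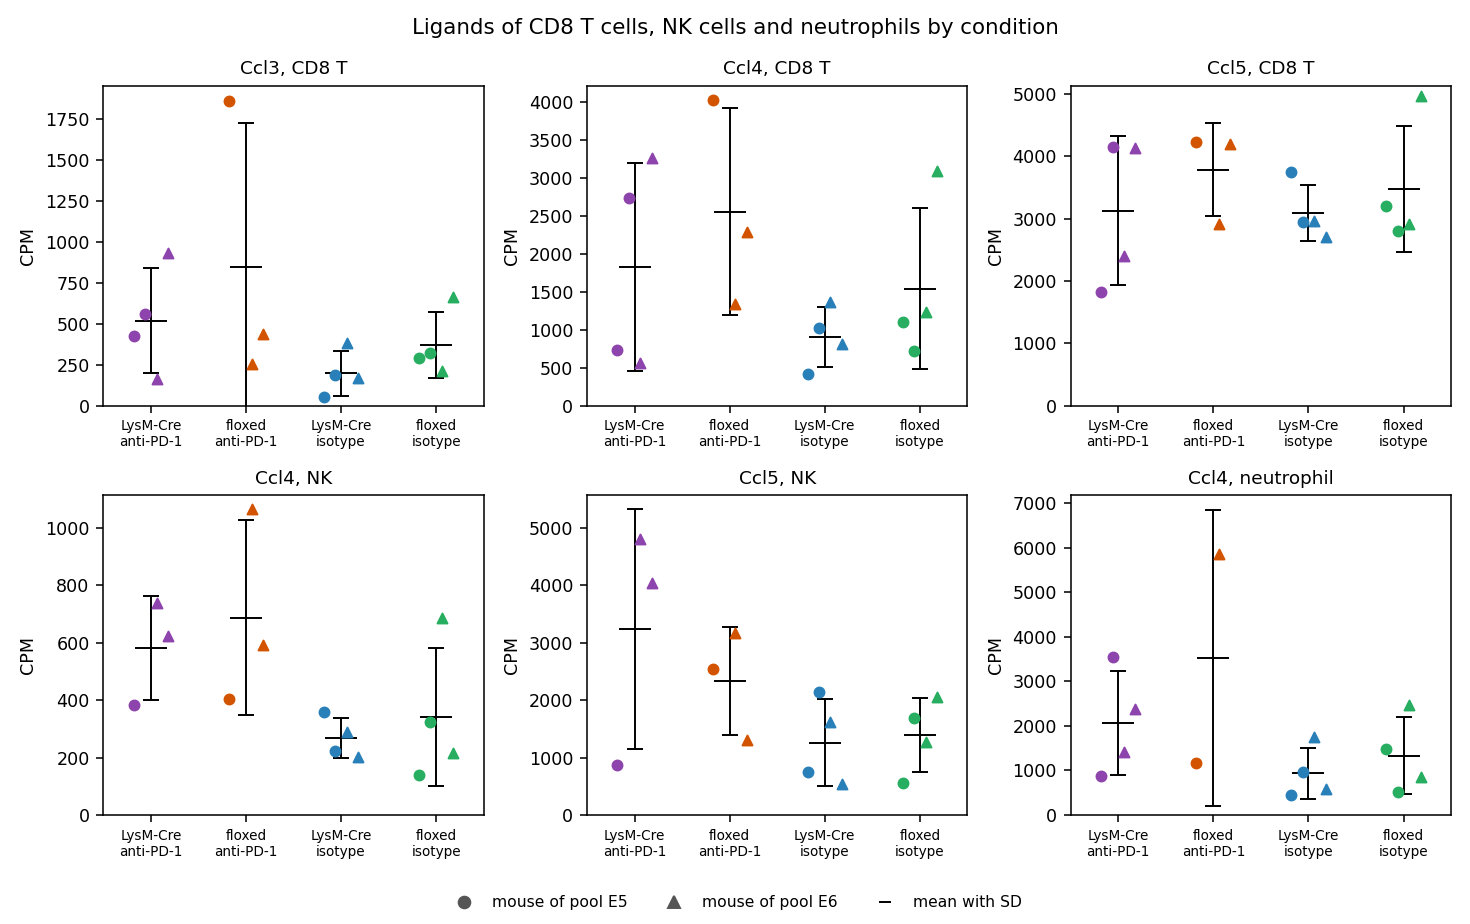
Level in CPM (vertical axes, starting at 0) of Ccl3, Ccl4 and Ccl5 in CD8 T cells, Ccl4 and Ccl5 in NK cells and Ccl4 in neutrophils of each mouse (circles, pool E5; triangles, pool E6), by condition (horizontal axis), with mean and SD (bars, cut at 0). NK Ccl4 lay between 384 and 1064 CPM in the anti-PD-1 mice and between 139.6 and 684 CPM in the isotype mice.

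Over all cells, Ccl22 had 0.656, 6.94, 2.54 and 7.93 CPM in LysM-Cre and 1.95, 0.647, 10.9 and 2.55 CPM in floxed anti-PD-1 mice, against 39.6, 7.67, 4.08 and 12.3 CPM in LysM-Cre and 13.3, 18.3, 13.5 and 10.1 CPM in floxed isotype mice. The values with anti-PD-1 were mostly lower, with a log2 change of -1.57 (SE 0.56, edgeR adjusted p = 0.200 averaged over genotypes), -2.72 within pool E5 and -0.67 within pool E6. The lowest of these values rest on few UMIs: all 16 mice together held 1965 Ccl22 UMIs, 82.3% of them in 113 mature dendritic cells. How many such cells a mouse gave and their level cannot be told apart in these values. Mature dendritic cells reached 20 cells in 1 mouse, so their own level of Ccl22 was not compared between conditions. In fibroblasts, Ccl4 was the ligand with the lowest p by genotype, with 43.4 CPM in LysM-Cre and 8.15 CPM in floxed anti-PD-1 mice (2.46, SE 0.84, edgeR adjusted p = 0.838), or 1.60 with the other hashtag rule. Myeloid genes summed to 3159 CPM (1794.5 to 5236) in these LysM-Cre fibroblasts and 1327 CPM (982 to 1716) in the floxed ones, and their part in the Ccl4 value was not tested.

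The receptors of these ligands were read from a list of 15 CC receptors and scavengers and the remaining ligands from a list of 11. Of the receptors 10 entered tests, and 0 of 248 tests passed over all genes, with 5 higher and 22 lower at unadjusted p under 0.05. The lowest adjusted p was that of Ccr2 in monocytes, averaged over genotypes, at 0.0922. Of the other ligands 6 entered tests, and 0 of 120 passed, with 4 higher and 9 lower at unadjusted p under 0.05, beside the 6.52% of all gene tests at that threshold and the 0.0295% that passed. Ccr2, the receptor of Ccl2, Ccl7 and Ccl12, averaged 1141 ± 230.02 CPM in cluster 4 (n = 13), 888.5 ± 206 CPM in monocytes (n = 16) and 664 ± 122 CPM in regulatory T cells (n = 9). Ccr1, the receptor of Ccl3, Ccl6 and Ccl9, was highest in neutrophils at 1478 ± 255 CPM (n = 14), the class in which Ccl3 and Ccl6 were also high. Ccr4 was detected at 38.2 ± 15.1 CPM and Ccr8 at 25.2 ± 9.1 CPM in regulatory T cells (SD, n = 9).

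Some other ligands were picked by their levels after these were seen. Ccl17, which shares CCR4 with Ccl22, had 779.6 pooled CPM in mature dendritic cells and 101 ± 89.0 CPM in cDC2 cells (n = 9), and Ccl1, a CCR8 ligand, averaged 162 ± 123 CPM in CD8 T cells (n = 15). Ccl11, an eotaxin, averaged 52.6 ± 48.6 CPM in fibroblasts (n = 15). Ccl20 and Ccl26 had no UMI in any class. Measured by Pearson correlation of mean log2(CPM + 1) over the 15 classes, the genes most like Ccl12 were C1qa (0.95), Mrc1 (0.95) and Adgre1 (0.94), all macrophage genes, and those most like Ccl8 were Mertk (0.85) and Igf1 (0.84). The gene most like Ccl2 was Mitf (0.93), the one most like Ccl6 was Pilrb2 (0.95), the one most like Ccl9 was Tmem51 (0.93) and the one most like Ccl7 was AI427809 (0.94). Ccl3 was most like Msra (0.84), Ccl4 most like Abr (0.85) with Tnf next (0.76), Ccl5 most like Ralgapa2 (0.88) and Ccl22 most like Plek2 (0.97). Between ligands, r was 0.87 for Ccl2 with Ccl7, 0.78 for Ccl3 with Ccl4, 0.80 for Ccl6 with Ccl9 and 0.70 for Ccl8 with Ccl12. These are descriptions over 15 classes that share libraries. Class means were taken over mice with at least 20 cells: 1 mouse for mature dendritic and for red blood cells, and 3 for the mast or basophil class. B and plasmacytoid dendritic cells had no such mouse and entered by their pooled values. The r of Ccl22, highest in mature dendritic cells, thus leans on 1 mouse.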

How the data were processed

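The deposited matrices hold raw UMI counts of genes and antibody tags for each barcode. Their headers name Cell Ranger 6.1.2, whereas version 3.0.1 and mm10 stand in the submitters' processing notes. Conditions came from the deposited hashtag table, in which 2 hashtags, both of floxed isotype mice, share a printed tag sequence. The mouse numbers used here follow hashtag order and serve as names alone. Pools E5 and E6 held 15301 and 16614 barcodes with 176338827 and 221763950 gene UMIs. Barcodes with at least 500 UMIs, 200 genes and at most 10% mitochondrial UMIs were assigned by HTODemux (Seurat 5.3.0); 8408 and 8831 carried 1 hashtag, and doublets (3836 and 4471) and negatives (1670 and 1213) were left out. Doublets of 1 hashtag remained (Scrublet marked 4.72%).

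Leiden clustering (scanpy 1.11.5, leidenalg 0.10.2) used 30 principal components of 2000 variable genes at resolution 1, without CC ligand and receptor genes. Clusters were named from fixed markers by a scoring rule set after the files were seen. Counts summed per mouse and class (at least 20 cells, at least 3 mice per condition) entered quasi-likelihood F tests of edgeR 4.0.16, with the pool as a covariate, TMM scaling and the filterByExpr minimum, adjusted over all genes. Class pairs were compared by exact sign-flip tests with a pseudocount of 1 CPM; their p-values were adjusted over all genes, not over the tests of the 10 ligands. Scripts were tested on simulated data. The ligands, the pathway lists and the genes named were chosen with earlier results of these data known: all 10 ligands by value, pathway genes that passed by value and the rest as counts, receptors by level, and for each ligand the genes most like it across classes (up to 3). Intervals cover counting error only. Alternatives were DESeq2 1.42.0, no TMM, no filter, no pool term, each pool alone, at least 10 cells, another hashtag rule, Scrublet removal, a pseudocount of 10, resolution 0.5 and each mouse left out. One receptor of the pathway list is not reported here.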

Additional observations from a re-analysis of the deposited data

Results flagged for a closer look

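Of 91 groups of 4 mice examined for the values named in the text, 8 held a mouse that stood apart from its group by Dixon's criterion, which chance does in about 1 of 20 groups (4.5 expected). In macrophages, LysM-Cre anti-PD-1 mouse 4 had 242 CPM of Ccl7, against 68.4 to 94.996 CPM in the rest of its group, and floxed anti-PD-1 mouse 3 had 172 CPM of Ccl5, against 48.6 to 65.0 CPM. In monocytes, floxed isotype mouse 2 had 584 CPM of Ccl9, against 364 to 399 CPM, and floxed anti-PD-1 mouse 3 had 188 CPM of Ccl7, against 7.49 to 16.4 CPM. In neutrophils, LysM-Cre isotype mouse 2 had 739 CPM of Ccl6, against 1034.7 to 1068 CPM, and floxed isotype mouse 2 had 516 CPM, against 1193 to 1236 CPM. Over all cells, LysM-Cre anti-PD-1 mouse 3 had 401 CPM of Ccl8, against 134 to 176 CPM, and floxed anti-PD-1 mouse 3 had 153 CPM, against 89.3 to 94.4 CPM. Floxed anti-PD-1 mouse 3 stood apart 3 times, for 3 different ligands, each time above its group.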

How the results depend on the processing

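The counts of 0 ligand calls held in all 7 contrasts with DESeq2, without TMM, without the pool term, with at least 10 cells, with the other hashtag rule, after Scrublet removal and at resolution 0.5. Without a filter on low counts the calls were 14 and 14 for genotype within isotype and within anti-PD-1, 16 and 15 for anti-PD-1 within floxed and within LysM-Cre mice, 10 for the interaction, 17 for genotype averaged and 21 for anti-PD-1 averaged; the fitted SE of macrophage Ccl2 (genotype under anti-PD-1) was then 0.15 instead of 0.32, and the cause was not tested. Fits within 1 pool held at most 2 mice per condition, under the minimum of 3 used otherwise. Within pool E5 alone the calls were 2 for genotype within isotype, 3 for anti-PD-1 within floxed, 1 for the interaction and 2 for anti-PD-1 averaged. Within pool E6 alone they were 2 for genotype within isotype, 1 for anti-PD-1 within LysM-Cre and 1 for genotype averaged. The share of all genes called in these alternative fits is not given here, so the counts are not a result about the ligands in particular. Cluster 4 Ccl9 (anti-PD-1 within LysM-Cre, -0.93) turned to 0.053 within pool E5. Between classes, 3 ligands instead of 6 passed for macrophages against monocytes within pool E6. For NK against CD8 T cells 0 instead of 4 passed within either pool. For neutrophils against monocytes 5 instead of 9 passed within pool E5. These tests held fewer mice, so their smallest possible p was higher. Leaving out 1 mouse at a time gave 0 to 4 calls for genotype within isotype, 0 to 1 for anti-PD-1 within floxed and for anti-PD-1 averaged, and 0 for the other contrasts, and 6 to 7, 4 to 5 and 9 of 9 passes for the 3 class pairs. The 4 calls came on leaving out LysM-Cre isotype mouse 2, 1 on leaving out mouse 3 of the floxed isotype group, and 2 (monocyte Ccl7 in both contrasts) on leaving out mouse 3 of the floxed anti-PD-1 group. No paired analysis was possible because the hashtag table gives the mice of a condition no numbers that pair them across conditions. Depth limits the classes with few cells: the lowest mouse gave 134 cells, and no mature dendritic, plasmacytoid or B cell value could be compared between conditions.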
